A study of Mus musculus with 10 samples.

Results

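Transcripts of the collagen chains were measured in left ventricle from 5 control mice and 5 HFD+mTAC mice. The chains were chosen by symbol (Col, a type number of 1 or 2 digits, the letter a and 1 digit) and by a TPM above 0 in at least 9 of the 10 mice, where TPM is the transcripts-per-million value, an abundance corrected for transcript length and scaled within each mouse. Of 29564 genes in the tables, 44 carried such a symbol and 35 met the rule, 8 of 11 fibrillar, 6 of 6 basement membrane, 4 of 6 microfibrillar and 17 of 21 other collagens. Of the 9 left out, Col6a4 was listed at 0 in every mouse, where a count of 0 allows up to 3 counts or 0.142 to 0.237 CPM (the counts-per-million value over the genes tested) by mouse. The other 8 (Col2a1, Col6a5, Col9a1, Col9a2, Col10a1, Col11a1, Col19a1 and Col24a1) had at most 8 counts in any mouse. Nearest to the rule's limit, Col17a1 and Col20a1 were above 0 in 9 mice and Col9a2 and Col11a1 in 6.

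All mice were male, of genotype WT and strain C57BL6 as labelled (C57BL/6J in the study's methods), and the labels give vehicle as the treatment of both groups. The study's methods describe the dosing for HFD+mTAC mice together with mice of another disease model, and not for controls. The vehicle was DMSO, PEG-300 and water once a day at 10 mL/kg for 6 to 9 weeks. This range covers both models, and the time for the mice measured here is not stated there. HFD+mTAC mice had mTAC surgery (moderate transverse aortic constriction, in which the aorta is narrowed so that the ventricle pumps against a raised pressure) at 11 weeks of age and then a high-fat diet (HFD) with 60% of kilocalories from fat, and dosing began 16 weeks after induction. Control mice had no operation and ate chow with 10% of kilocalories from fat, so diet and operation cannot be told apart. The study used these mice to model a heart failure in which ejection fraction is preserved and stiffening of the matrix around the muscle cells is a central concern. The comparison asks which collagen transcripts differ in such hearts.

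Collagens are the structural proteins of the extracellular matrix, and each molecule is a helix of wound chains, which come from 1 gene in some types and from several in others. In the heart, fibroblasts make the fibrillar types I and III, which form the interstitial fibers that carry tension, with type V in the core of the fiber. Type IV chains form the sheet of the basement membrane around muscle cells and capillaries, type VI forms beaded microfibrils between that sheet and the fibers, and the other types bind fibers, span membranes or form small networks. Fibrosis is the build-up of collagen protein, which depends on processing, cross-linking and breakdown as well as on mRNA.

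Libraries held 34.2 to 53.7 M estimated counts, of which 12.7 to 21.1 M fell to nuclear protein-coding genes. Mitochondrial genes took 43.8% and 44.0% of the counts in control mice TT-583 and TT-584 and 46.4 to 52.7% in the other 8 mice. These 2 control mice stood apart in most collagens, and the fold changes of the chains described one by one are also given without them. They were the 2 highest controls in most chains of at least 10 CPM, so leaving them out raises most fold changes by that choice. Whole tissue was measured, so a change in the number of a cell type and a change in RNA per cell cannot be told apart.

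Per length, the most abundant chains were of types III, IV and XV. By the deposited TPM, Col3a1 (12.2 ± 8.36 in control and 9.44 ± 2.87 in HFD+mTAC mice, mean ± SD, n = 5 each), Col4a1 (11.02 ± 4.5 and 9.91 ± 2.64) and Col15a1 (9.67 ± 6.48 and 9.16 ± 1.35) came first, and their order lay within the spread of the mice. Col4a2 had a mean of 6.30 TPM over the 10 mice, Col6a2 4.17, Col1a2 2.80, Col6a1 2.31, Col5a1 2.24, Col4a5 1.45, Col6a3 1.37 and Col1a1 1.31. The remaining 24 members averaged under 1 TPM.

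The order of the levels depended on the transcript length used. The authors' effective lengths, which include corrections for sequence and position bias, exceeded the longest annotated transcript for 22 of the 35 members. For Col1a1, which encodes the main chain of type I collagen, the mean effective length was 14053 bases against 5930 annotated bases, and for Col15a1 it was 2326 against 5172. On CPM per kilobase of the longest annotated transcript, Col4a2 (80.8) and Col4a1 (63.8) led, followed by Col3a1 (37.4), Col1a2 (31.8), Col6a1 (28.7), Col6a2 (26.9), Col15a1 (26.0) and Col1a1 (19.9). Col1a1 thus stood at rank 11 by TPM and rank 8 per annotated kilobase, and Col15a1 at rank 3 and rank 7. Fold changes of single chains below therefore come from counts, shown as CPM normalized by the TMM method over the genes tested, while sums, shares and ratios of chains are in TPM unless counts are named.

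The summed collagen level overlapped between the groups. From TT-583 to TT-587, the controls, the 35 chains summed to 93.4, 93.8, 41.5, 49.2 and 31.5 TPM, and from TT-588 to TT-592, the HFD+mTAC mice, to 55.8, 40.3, 55.5, 57.4 and 63.6 TPM. Both the highest mice and the lowest mouse were controls. When TPM was rescaled to nuclear protein-coding genes alone, the sum was 389.5 ± 138 in control and 396 ± 41.2 in HFD+mTAC mice (SD, n = 5 each). Fibrillar chains made up 31.9% ± 3.57 of collagen TPM in control and 30.4% ± 4.31 in HFD+mTAC mice, basement membrane chains 33.0% ± 4.68 and 31.9% ± 4.0, microfibrillar chains 14.4% ± 1.0 and 13.5% ± 1.44, and the other types 20.7% ± 3.08 and 24.2% ± 3.39 (SD, n = 5 each). Each type's share overlapped between the groups.

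No collagen passed an adjusted p of 0.05 in edgeR's quasi-likelihood test. Over all 13315 genes tested, 8 genes (0.0601%) passed. At an unadjusted p under 0.05, 2 of the 35 chains passed, Col8a1 with a higher and Col5a3 with a lower level in HFD+mTAC mice, against 8.25% of all genes (4.54% higher and 3.72% lower). Groups did not overlap in 1 of the 35 chains, Col8a1, against 1.96% of all genes. With DESeq2, 1 chain was called, again Col8a1, against 0.901% of all genes. The median log2 fold change of the members was -0.01, beside 0.0015 over all genes, with 17 members above 0 and 18 below.

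**Figure D1:**
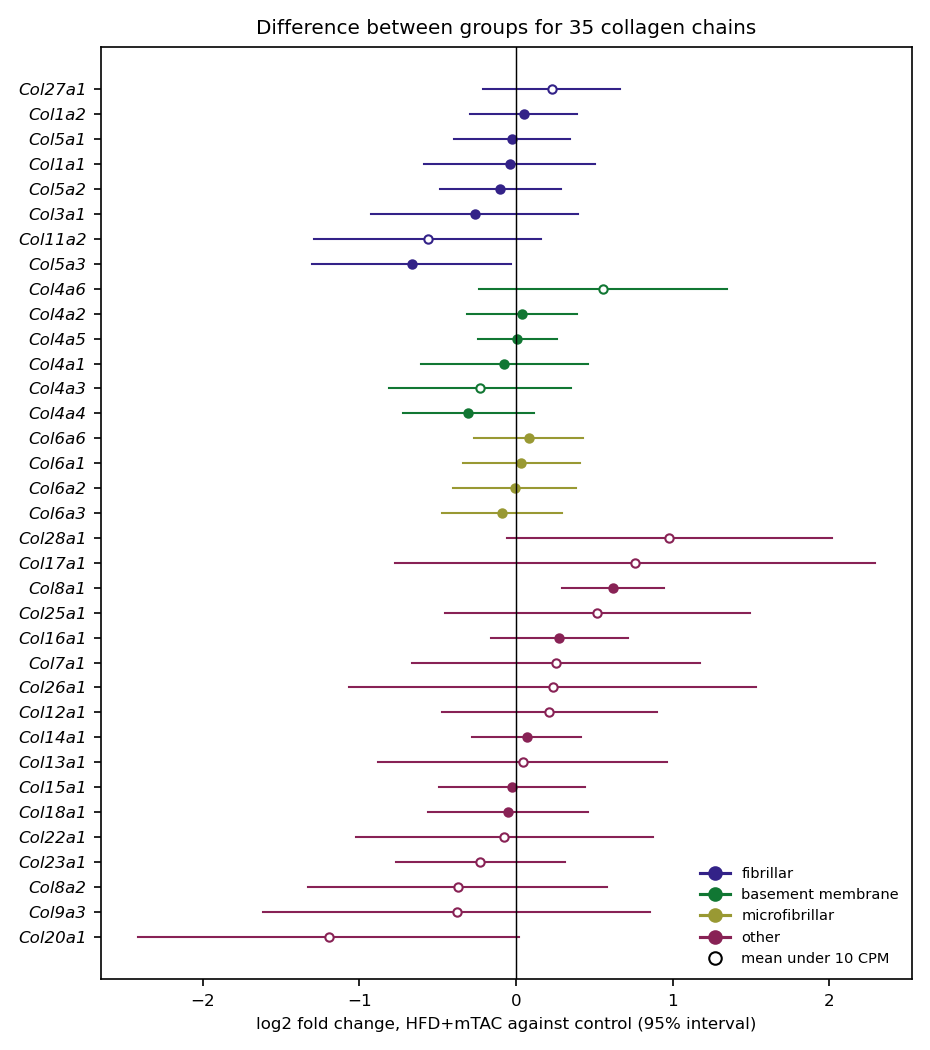
Log2 fold change (x axis) of each of the 35 chains, HFD+mTAC against control, grouped by collagen type, with the 95% interval of edgeR as a line; open points average under 10 CPM. Col8a1 (0.62) and Col5a3 (-0.67) are the chains whose intervals do not cross 0.

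The precision of these values differed with the level. For the 19 members averaging at least 10 CPM, the 95% interval reached 0.25 to 0.66 (median 0.39) to either side on the log2 scale, and 18 of the 19 intervals lay within 1 of 0. For the 16 members under 10 CPM it reached 0.43 to 1.53, so that changes within that range were not detectable in them at this depth and number of mice.

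Among the fibrillar collagens, 2 of 8 members had a fold change above 0 and 6 below, with a median log2 fold change of -0.07. Col3a1 (chromosome 1, 45311538 to 45349706 on the plus strand of GRCm38), the chain of type III collagen, was at 363, 299, 139, 221 and 114 CPM in the controls and at 161, 141, 273, 235 and 136 CPM in the HFD+mTAC mice, each in order of mouse number. The control values spanned 3.19-fold and enclosed every HFD+mTAC value. The log2 fold change of Col3a1 was -0.26 (95% interval -0.92 to 0.40, adjusted p = 0.886 from edgeR), and it was 0.26 without TT-583 and TT-584.

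Type I collagen, the most abundant protein of the cardiac interstitium, is built from the chains of Col1a1 and Col1a2. Col1a1 was at 165, 157, 86.7, 125 and 62.6 CPM in the controls and at 100.3, 88.7, 161, 135 and 96.0 CPM in the HFD+mTAC mice, in the same mouse order. Col1a2 was at 205, 198, 136, 169 and 127 CPM in the controls and at 161, 136, 219.96, 186 and 162 CPM in the HFD+mTAC mice. The log2 fold changes were -0.04 (95% interval -0.59 to 0.50) for Col1a1 and 0.05 (-0.29 to 0.39) for Col1a2. Without TT-583 and TT-584, they were 0.34 (SE 0.25) and 0.27 (SE 0.16). For both chains the groups overlapped along nearly the whole range.

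Type V collagen sits inside type I fibers and limits their width. Col5a1 was at 73.0, 68.0, 50.3, 55.9 and 35.4 CPM in the controls and at 50.9, 52.1, 68.3, 58.0 and 48.8 CPM in the HFD+mTAC mice, and Col5a2 at 56.5, 47.9, 36.1, 37.0 and 30.1 CPM and at 36.6, 28.5, 49.4, 42.9 and 36.8 CPM. The log2 fold changes were -0.03 (95% interval -0.40 to 0.34) for Col5a1 and -0.10 (-0.49 to 0.29) for Col5a2 with all mice, and 0.23 and 0.17 without TT-583 and TT-584. The third chain of this type, Col5a3 (chromosome 9, 20770050 to 20815067 on the minus strand), was at 49.4, 54.7, 23.5, 21.6 and 19.3 CPM in the controls and at 20.6, 15.1, 19.9, 27.8 and 23.2 CPM in the HFD+mTAC mice. Only TT-583 and TT-584 lay above the HFD+mTAC mice, and the other 3 controls lay among them. The log2 fold change of Col5a3 was -0.67 (SE 0.29, unadjusted p = 0.0412, adjusted p = 0.577 from edgeR) with all mice and -0.01 without these 2.

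The remaining fibrillar members were rare in ventricle. Col11a2, a type XI chain best known from cartilage, was at 4.41, 6.04, 2.64, 1.69 and 2.04 CPM in the controls and at 2.11, 1.81, 2.77, 2.66 and 2.15 CPM in the HFD+mTAC mice (log2 fold change -0.56, adjusted p = 0.711 from edgeR), and its highest values were again TT-583 and TT-584. Without both, its log2 fold change was 0.10. Col27a1 averaged 8.87 ± 2.89 CPM in control and 10.3 ± 1.27 in HFD+mTAC mice (SD, n = 5 each).

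Basement membrane collagens divided evenly, with 3 members above 0 and 3 below (median log2 fold change -0.03). Col4a1 and Col4a2 encode the main type IV chains and lie head to head on chromosome 8, where their annotated ends share 22 bases (11312805 to 11312826). Col4a1 was at 572, 555, 468, 348 and 219.8 CPM in the controls and at 433, 424, 246, 490 and 463 CPM in the HFD+mTAC mice. Col4a2 was at 632, 658, 467, 464 and 349.7 CPM in the controls and at 496, 429, 590.7, 608 and 518 CPM in the HFD+mTAC mice. In the HFD+mTAC mouse TT-590, Col4a1 was the lowest of its group and Col4a2 among the 2 highest. The log2 fold changes were -0.07 (95% interval -0.61 to 0.46) for Col4a1 and 0.04 (-0.31 to 0.39) for Col4a2. Without TT-583 and TT-584, they were 0.25 (SE 0.26) and 0.31 (SE 0.14, adjusted p = 0.902 from edgeR).

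Col4a5, an X-linked type IV chain that is mutated in Alport syndrome, varied least. It was at 33.1, 30.4, 38.0, 37.2 and 38.0 CPM in the controls and at 38.3, 37.2, 31.6, 28.5 and 41.8 CPM in the HFD+mTAC mice, and its log2 fold change was 0.01 (95% interval -0.25 to 0.26), and -0.09 without TT-583 and TT-584. Its partners were lower, with Col4a4 at 14.6 ± 3.55 and 11.9 ± 2.59 CPM, Col4a3 at 6.93 ± 2.30 and 5.92 ± 1.64 CPM, and Col4a6 at 1.85 ± 0.797 and 2.73 ± 1.12 CPM in control and HFD+mTAC mice (SD, n = 5 each). The lowest adjusted p of the basement membrane collagens was 0.739 (edgeR, Col4a4).

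The microfibrillar collagens had log2 fold changes between -0.09 and 0.08 with all mice. Type VI molecules contain one chain each of Col6a1, Col6a2 and Col6a3 or a relative of it. Col6a1 was at 147, 137, 98.8, 119 and 78.6 CPM in the controls and at 107, 94.0, 149.7, 136 and 108 CPM in the HFD+mTAC mice, and Col6a2 at 163, 166, 109, 136 and 89.3 CPM and at 113, 111, 178, 139 and 119 CPM. Col6a3 was at 59.4, 58.0, 40.1, 53.0 and 29.4 CPM in the controls and at 49.4, 41.9, 44.6, 53.1 and 37.0 CPM in the HFD+mTAC mice. The 95% intervals of the log2 fold changes were -0.34 to 0.41 for Col6a1, -0.40 to 0.38 for Col6a2 and -0.47 to 0.29 for Col6a3. The fold changes without TT-583 and TT-584 were 0.27 for Col6a1, 0.24 for Col6a2 and 0.14 for Col6a3 on the log2 scale. Col6a6, a relative of Col6a3, averaged 16.4 ± 3.53 and 17.4 ± 2.54 CPM (SD, n = 5 each).

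**Figure D2:**
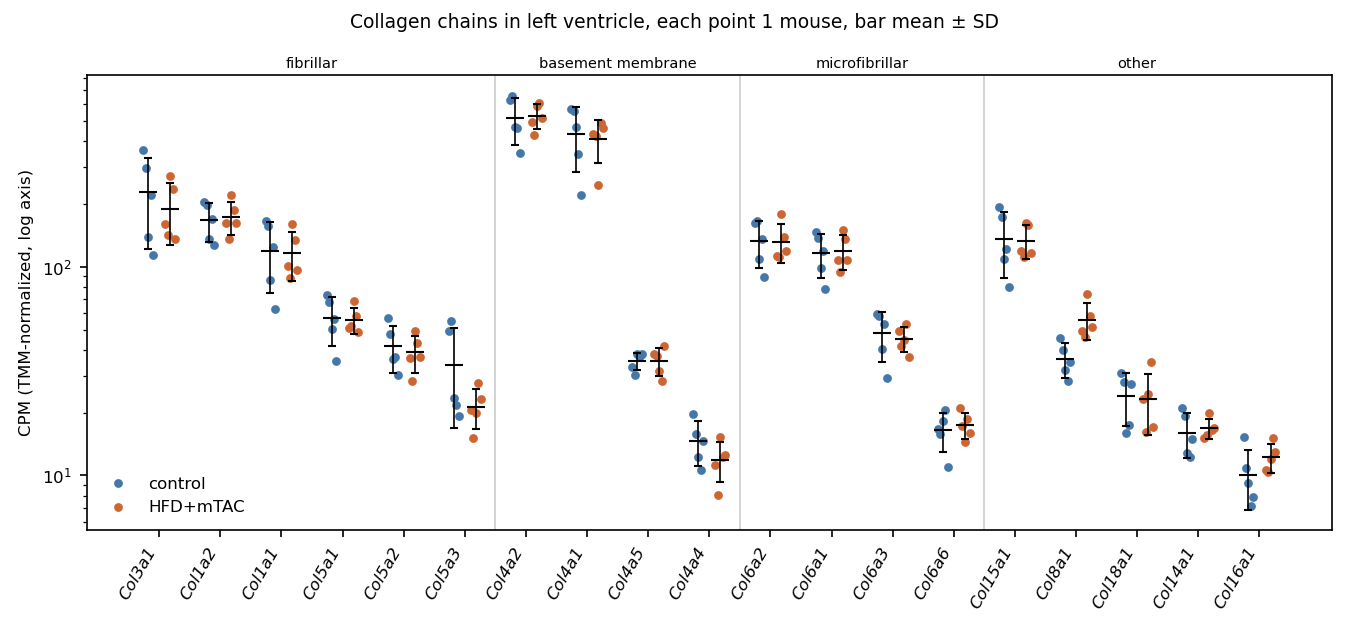
CPM on a log axis (y axis) of the 19 collagen chains averaging at least 10 CPM, ordered by type; each point is 1 mouse, and bars give the mean and SD of 5 control or 5 HFD+mTAC mice. The groups overlap in every chain except Col8a1, where the highest control is at 45.7 CPM and the lowest HFD+mTAC mouse at 46.0 CPM.

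The other collagens held the chain with the smallest p, Col8a1 (chromosome 16, 57624258 to 57754737 on the minus strand). Type VIII is a short-chain collagen that forms networks under endothelium and in vessel walls and is known to be made in remodeling arteries. Col8a1 was at 45.7, 39.8, 32.1, 28.5 and 34.8 CPM in the controls and at 49.2, 46.0, 73.8, 58.1 and 51.3 CPM in the HFD+mTAC mice. The groups did not overlap, by the narrow margin of 46.0 CPM in the lowest HFD+mTAC mouse against 45.7 CPM in the highest control. The log2 fold change was 0.62 (SE 0.15, 95% interval 0.29 to 0.95, unadjusted p = 0.00137), which did not pass adjustment over all genes (adjusted p = 0.256 from edgeR). Over all alternatives its log2 fold change stayed between 0.50 and 0.81, while its adjusted p ran from 0.0279 with DESeq2 to 0.602 with limma on log2(TPM + 0.1). It also passed with the first principal component of the libraries as a covariate (adjusted p = 0.0391 from edgeR). Without TT-590, the highest mouse, the log2 fold change was 0.50 (adjusted p = 0.439 from edgeR), and without TT-583 and TT-584 it was 0.81 (adjusted p = 0.367 from edgeR).

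Its partner chain Col8a2 was nearly absent, at 1.54, 0.840, 0.441, 0.423 and 1.02 CPM in the controls and at 0.960, 0.363, 0.845, 0.409 and 0.736 CPM in the HFD+mTAC mice (6 to 32 counts). The groups overlapped (log2 fold change -0.37, 95% interval -1.33 to 0.58), and without TT-583 and TT-584 the log2 fold change was 0.10. Per annotated kilobase Col8a1 averaged 8.99 CPM and Col8a2 0.175 CPM.

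Sequences upstream of the genes are shown for Col8a1 and Col5a3, which had the smallest p of the higher and the lower chains, and for Col3a1, which stands for the fibrillar chains that moved together between mice. Each holds the 250 bases before the RefSeq start in GRCm38.p6, on the strand of the gene, with matches in capitals to GGGCGG (the core bound by Sp1-type factors), CCAAT or TATAAA on either strand. The windows are chr16:57754738-57754987 (minus strand, Col8a1), chr9:20815068-20815317 (minus strand, Col5a3) and chr1:45311288-45311537 (plus strand, Col3a1).
Col8a1: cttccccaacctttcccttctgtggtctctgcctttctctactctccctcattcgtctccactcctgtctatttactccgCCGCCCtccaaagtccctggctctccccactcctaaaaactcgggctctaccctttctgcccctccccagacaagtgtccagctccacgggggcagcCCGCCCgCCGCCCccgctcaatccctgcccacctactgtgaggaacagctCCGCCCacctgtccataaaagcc
Col5a3: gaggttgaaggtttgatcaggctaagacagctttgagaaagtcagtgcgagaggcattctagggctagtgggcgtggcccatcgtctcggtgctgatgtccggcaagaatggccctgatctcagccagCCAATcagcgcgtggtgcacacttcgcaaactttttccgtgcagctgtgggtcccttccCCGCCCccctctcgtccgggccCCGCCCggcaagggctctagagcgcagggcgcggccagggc
Col3a1: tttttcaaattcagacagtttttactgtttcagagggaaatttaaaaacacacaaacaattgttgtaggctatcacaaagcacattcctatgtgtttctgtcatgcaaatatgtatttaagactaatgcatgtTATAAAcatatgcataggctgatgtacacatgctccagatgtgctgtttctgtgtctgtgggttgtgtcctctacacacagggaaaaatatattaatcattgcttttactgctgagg

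The window of Col8a1 held 4 copies of GGGCGG, all read as CCGCCC on the strand shown, at -170, -73, -66 and -23 relative to the start, and no CCAAT or TATAAA. That of Col5a3 held 2 such copies (-63 and -41) and 1 CCAAT (-122). That of Col3a1 held neither, but 1 TATAAA at -117. GC content was 60.8% for Col8a1, 62.8% for Col5a3 and 35.2% for Col3a1, against a median of 52.4% over 32851 promoter windows of the same length. Of all windows, 32.7% held GGGCGG, 33.8% CCAAT and 12.4% TATAAA on either strand, and of 29 windows that matched 27 of the members, 18, 10 and 4 did. The motifs do not overlap each other in these 3 sequences, and a match describes letters only.

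The endothelial and vascular multiplexins overlapped between the groups. Col15a1, whose chain links basement membranes to the interstitial matrix, was at 193, 174, 109, 121 and 79.7 CPM in the controls and at 118, 111, 162, 159 and 116 CPM in the HFD+mTAC mice (log2 fold change -0.02, 95% interval -0.49 to 0.44). Col18a1, the precursor of endostatin, was at 31.1, 28.0, 15.96, 17.4 and 27.4 CPM and at 23.1, 16.1, 24.4, 35.01 and 17.1 CPM (log2 fold change -0.05, -0.57 to 0.46). Without TT-583 and TT-584, the log2 fold changes were 0.37 (SE 0.18, adjusted p = 0.903 from edgeR) for Col15a1 and 0.20 (SE 0.27) for Col18a1. Among the fibril-associated collagens, Col16a1 was at 15.2, 10.9, 9.20, 7.11 and 7.86 CPM in the controls and at 10.6, 10.4, 12.0, 15.1 and 13.0 CPM in the HFD+mTAC mice. Its log2 fold change was 0.28 (95% interval -0.16 to 0.71), and 0.60 without TT-583 and TT-584 (adjusted p = 0.746 from edgeR). Col14a1, another fibril-associated chain, averaged 16.02 ± 3.97 and 16.8 ± 1.88 CPM in control and HFD+mTAC mice (SD, n = 5 each).

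At the low end, 2 chains had some of the larger fold changes with few counts. Col20a1 was at 1.97, 2.89, 2.06, 1.41 and 2.36 CPM in the controls and at 1.28, 1.21, 1.69, 0 and 0.491 CPM in the HFD+mTAC mice (log2 fold change -1.20, unadjusted p = 0.0531, adjusted p = 0.607 from edgeR). Col28a1 was at 0.480, 2.15, 0.783, 1.13 and 1.65 CPM in the controls and at 1.6, 1.21, 5.23, 2.66 and 1.53 CPM in the HFD+mTAC mice (0.98, unadjusted p = 0.0626, adjusted p = 0.627 from edgeR). In both the groups overlapped, and without TT-590, which had the highest Col28a1, the log2 fold change of Col28a1 was 0.50. When both TT-583 and TT-584 were left out, the log2 fold changes were -1.06 for Col20a1 and 1.05 for Col28a1. The other 9 chains of this class (Col7a1, Col9a3, Col12a1, Col13a1, Col17a1, Col22a1, Col23a1, Col25a1 and Col26a1) averaged between 0.144 and 3.70 CPM, and their lowest adjusted p was 0.824 (edgeR, Col25a1).

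Control mice differed more from one another in collagen than in a typical gene of like level. Among the 19 members averaging at least 10 CPM, the highest control was a median of 1.88-fold above the lowest (1.25-fold for Col4a5 to 3.19-fold for Col3a1), against 1.34-fold over 8732 genes of that level. TT-583 and TT-584 were the 2 highest controls in 17 of the 19, with Col4a5 and Col6a6 as the exceptions, whereas this held for 12.6% of the 8732 genes. TT-587 was the lowest control in 13 of the 19 and the lowest of all 10 mice in 11. Among HFD+mTAC mice, TT-590 and TT-591 were the 2 highest in 11 of the 19. Without TT-583 and TT-584, the median log2 fold change of the members was 0.23, a rise that follows from leaving out the highest controls. Still no member passed an adjusted p of 0.05 in edgeR's test.

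**Figure D3:**
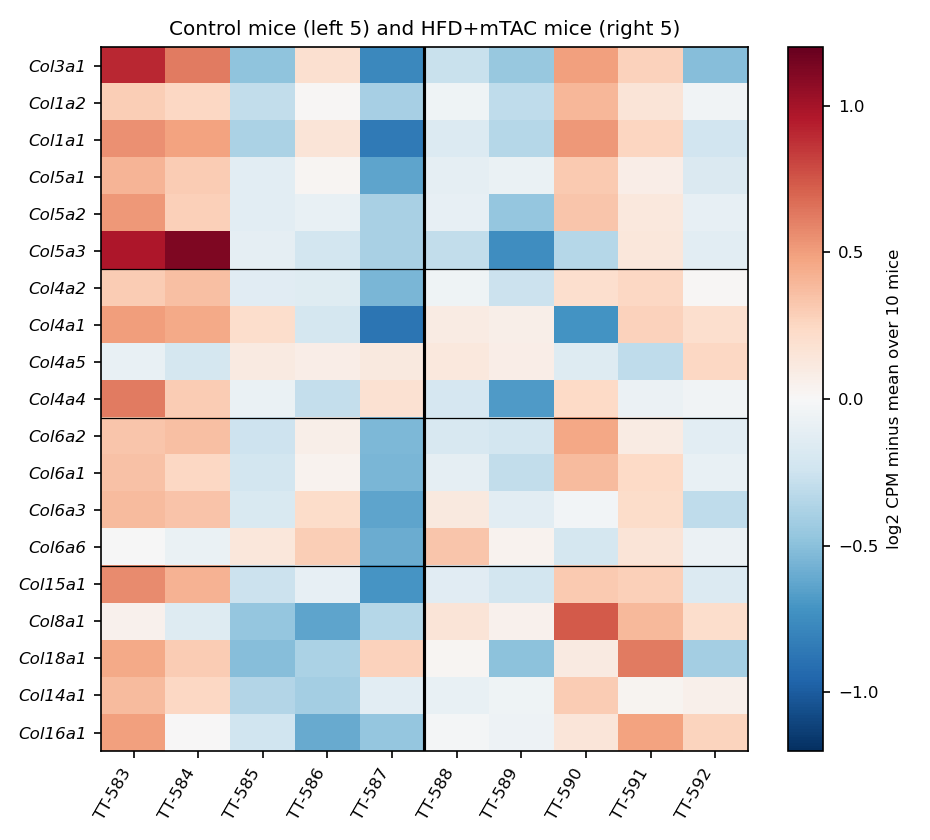
Log2 CPM of 19 collagen chains (rows, ordered by type) in each of the 10 mice (columns), as the difference from the chain's mean over all mice. The columns of TT-583 and TT-584 are red and that of TT-587 blue in most rows, while Col4a5 stays pale and Col4a1 departs from its neighbors in TT-590.

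Measures that moved with these mice included the mitochondrial share, at 43.8% and 44.0% in TT-583 and TT-584. Summed markers of activated fibroblasts, macrophages and cardiomyocytes also set them apart from the other controls. Markers of resident fibroblasts (Pdgfra, Dcn, Tcf21, Lum, Dpt, Gsn, Mfap5 and Pi16) summed to 1879 and 1875 CPM in TT-583 and TT-584, within the 1623 to 1953 CPM of the other controls. Markers of activated fibroblasts (Postn, Cilp, Meox1, Comp, Cthrc1, Fap and Thbs4) summed to 177 and 141 CPM in them and to 86.8 to 108 CPM in the other controls. The genes of collagen biosynthesis named below summed to 2402 and 2414 CPM in them and to 1832 to 1959 CPM in the other controls. Macrophage markers summed to 259 and 279 CPM in them and to 182 to 235 CPM in the other controls. Cardiomyocyte markers were lower in them, at 48597 and 47477 CPM against 49504 to 52838 CPM in the other controls. Endothelial and mural markers did not set them apart. The endothelial sums were 2049 and 1896 CPM in them, with control TT-587 between at 1983 CPM. The mural sums were 2731 and 2735 CPM in them, below the 2903 CPM of TT-587. The part of the mitochondrial share, of fibroblast activation or of any other cell type in the collagen values was not tested.

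Most abundant chains rose and fell together from mouse to mouse. Correlations with Col1a1 were computed for 9 chains over 10 mice, on log2 CPM after subtraction of each group's mean, with permutations within groups, and the 9 chains were picked after the values were seen. Pearson's r was 0.989 for Col6a1, 0.983 for Col3a1, 0.967 for Col1a2, 0.967 for Col15a1, 0.922 for Col4a2 and 0.914 for Col5a2, each with an adjusted p of 0.00219 or less by permutation. Spearman's rho for these 6 ran from 0.830 to 0.988 (adjusted permutation p 0.000742 to 0.0299). Without TT-583 and TT-587, the mice farthest from the median of Col1a1, r was 0.831 to 0.990. Over 8731 other genes of at least 10 CPM, which include these chains, the median r with Col1a1 was 0.0018. The share that reached the r of Col6a1 was 0.0115%, which is Col6a1 itself.

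Col8a1, Col5a3 and Col4a1 followed Col1a1 less closely. For Col8a1, r was 0.654 and rho 0.624 (adjusted permutation p = 0.0675 and 0.0983), and r was 0.806 without TT-583 and TT-587. For Col5a3, r was 0.743 and rho 0.685 (adjusted permutation p = 0.0675 and 0.106), and r fell to 0.577 without these mice. For Col4a1, r was 0.381 and rho 0.479 (adjusted permutation p = 0.366 and 0.247), and r was -0.352 without them. The chains share libraries, normalization and, for Col4a1 and Col4a2, neighboring starts.

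**Figure D4:**
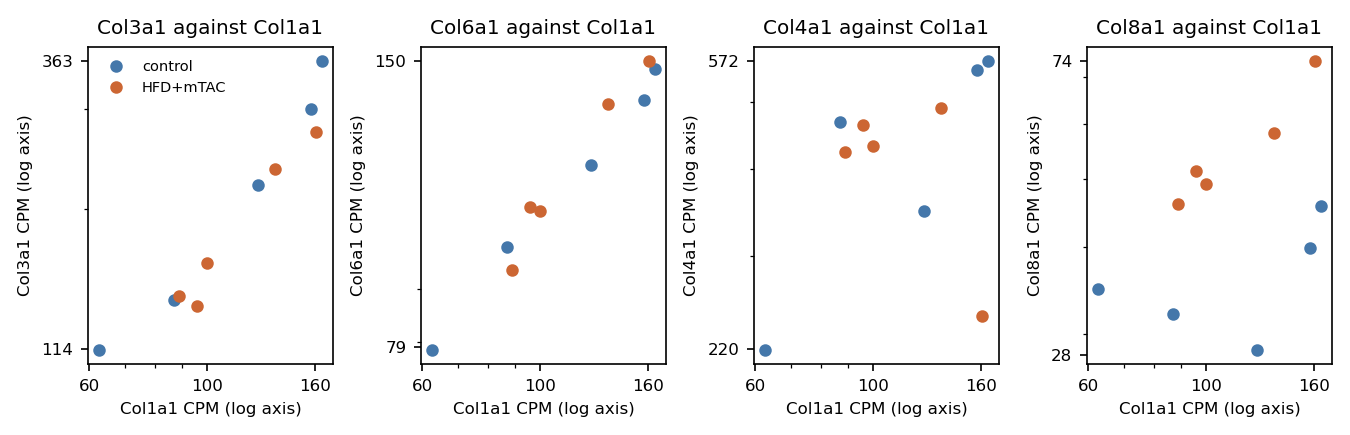
CPM of Col3a1, Col6a1, Col4a1 and Col8a1 (y axes, log) against CPM of Col1a1 (x axis, log), each point 1 mouse. Col3a1 and Col6a1 lie along a line (r 0.983 and 0.989), HFD+mTAC mouse TT-590 lies far below the others for Col4a1 at 246 CPM, and for Col8a1 the HFD+mTAC mice lie above controls of like Col1a1.

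Ratios of chains within a mouse do not depend on library depth, and 7 were compared by two-sided exact permutation tests over all arrangements of 5 against 5 mice, of which the smallest possible p is 0.00794. None passed adjustment over the 7. Col8a1 was 40.1, 65.1, 109, 99.7 and 46.9 times Col8a2 by TPM in the controls and 83.0, 208, 122, 213 and 97.9 times in the HFD+mTAC mice. The log2 ratio was 1.0 higher in HFD+mTAC mice (exact permutation p = 0.0556, adjusted p = 0.389), and it rests on the few counts of Col8a2.

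Col1a1 was 0.558-fold or less of Col1a2 in TPM in every mouse, with log2 ratios of -0.84, -0.90, -1.13, -0.85 and -2.01 in the controls and -1.16, -1.18, -1.0, -1.36 and -1.24 in the HFD+mTAC mice (exact permutation p = 0.913, adjusted p = 0.984). Control TT-587 was the lowest by far, and its effective length for Col1a1 was 16992 bases against 12559 to 13541 in the other controls. HFD+mTAC mouse TT-591, with a log2 ratio of -1.36, had a similar length of 16794 bases. Col3a1 was 7.84 times Col1a1 in control and 7.90 times in HFD+mTAC mice by geometric mean of TPM (exact permutation p = 0.984, adjusted p = 0.984). By counts, in contrast, it was 1.85 times in control and 1.61 times in HFD+mTAC mice (log2 difference -0.20, exact permutation p = 0.0397, adjusted p = 0.167). The type III to type I ratio is a usual measure of matrix composition, and here its direction depended on the unit.

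The ratio of Col4a1 to Col4a2 in TPM was 1.63, 1.51, 2.18, 1.74 and 1.24 in the controls and 1.98, 2.49, 0.943, 1.71 and 1.73 in the HFD+mTAC mice (exact permutation p = 0.873, adjusted p = 0.984). TT-590 was the one mouse with less Col4a1 than Col4a2 in TPM. By counts the ratio ran from 0.416 in TT-590 to 1.002 in TT-585, so which chain was higher depended on the unit in most mice. The differences in log2 ratio of Col5a1 to Col5a2 (0.18), Col6a1 to Col6a2 (-0.09) and Col6a3 to Col6a1 (-0.08) had exact permutation p-values of 0.444, 0.452 and 0.778 (adjusted p = 0.984 for each).

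Average effective lengths, which shift when reads are assigned to other transcripts of a gene, were compared with limma on log2 lengths. None of the members passed an adjusted p of 0.05, nor did any of 13204 genes (0%). At an unadjusted p under 0.05, 2 members passed against 3.57% of all genes, Col9a3 (log2 difference -2.18, adjusted p = 0.732 from limma) and Col26a1 (-2.25, adjusted p = 0.732 from limma). Both averaged under 1 CPM, so that a few reads set their lengths. For Col8a1 the log2 difference in length was 0.035 (SE 0.048) and for Col3a1 -0.15 (SE 0.20).

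Before it leaves the cell a chain is hydroxylated, folded by chaperones and packed for export, and outside it is trimmed and cross-linked. Of 34 genes for these steps, 33 were tested and P4ha3 did not pass the filter. None passed an adjusted p of 0.05 in edgeR's test, 18 had a fold change above 0 and 15 below, and the median log2 fold change was 0.03. At an unadjusted p under 0.05, 3 were higher in HFD+mTAC mice (4.54% of all genes) and 0 lower (3.72%), and groups did not overlap in 2, both higher (1.07%).

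Fkbp10, an endoplasmic reticulum chaperone that assists the lysyl hydroxylase of collagen telopeptides, was at 32.5 ± 3.88 CPM in control and 48.6 ± 6.59 CPM in HFD+mTAC mice (log2 fold change 0.58, SE 0.11, adjusted p = 0.142 from edgeR), with 37.1 CPM in the highest control and 41.3 CPM in the lowest HFD+mTAC mouse. Leprel4, the older symbol of P3h4, which acts with a lysyl hydroxylase and a prolyl 3-hydroxylase relative, was at 31.8 ± 2.91 and 41.2 ± 3.72 CPM (0.37, SE 0.09, adjusted p = 0.262 from edgeR), with no overlap (34.8 and 36.4 CPM). It is named with Fkbp10 as the pair of smallest p among the higher genes. The third with an unadjusted p under 0.05 was Pcolce2, an enhancer of procollagen C-proteinase (0.41, adjusted p = 0.294 from edgeR), chosen here after its values were seen. Among genes with a fold change below 0, the smallest p were those of Creb3l1, a transcription factor of collagen secretion (-0.28, adjusted p = 0.765 from edgeR), and P4ha1, a catalytic subunit of prolyl 4-hydroxylase (-0.38, adjusted p = 0.780 from edgeR), with groups overlapping in both. P4ha1 ran from 54.1 to 188 CPM in the controls and from 56.4 to 80.7 CPM in the HFD+mTAC mice.

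Of 13 collagen receptors, 12 were tested, 7 above 0 and 5 below, and none passed an adjusted p of 0.05 in edgeR's test. At an unadjusted p under 0.05, 1 was higher (4.54% of all genes) and 1 lower (3.72%). Groups did not overlap in 1 receptor, which was lower (0.886% of all genes). Itga2, a collagen-binding integrin subunit best known from platelets, was at 1.90 ± 0.205 CPM in control and 1.06 ± 0.25 CPM in HFD+mTAC mice, with no overlap (log2 fold change -0.84, SE 0.25, adjusted p = 0.337 from edgeR). Mrc2, an endocytic receptor that clears collagen, was at 31.3 ± 3.85 and 37.9 ± 3.38 CPM (0.27, adjusted p = 0.484 from edgeR). Itgb1, the shared beta subunit of the collagen-binding integrins, had a log2 fold change of 0.07 (adjusted p = 0.867 from edgeR), and Cd44 had -0.18 (adjusted p = 0.789 from edgeR).

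**Figure D5:**
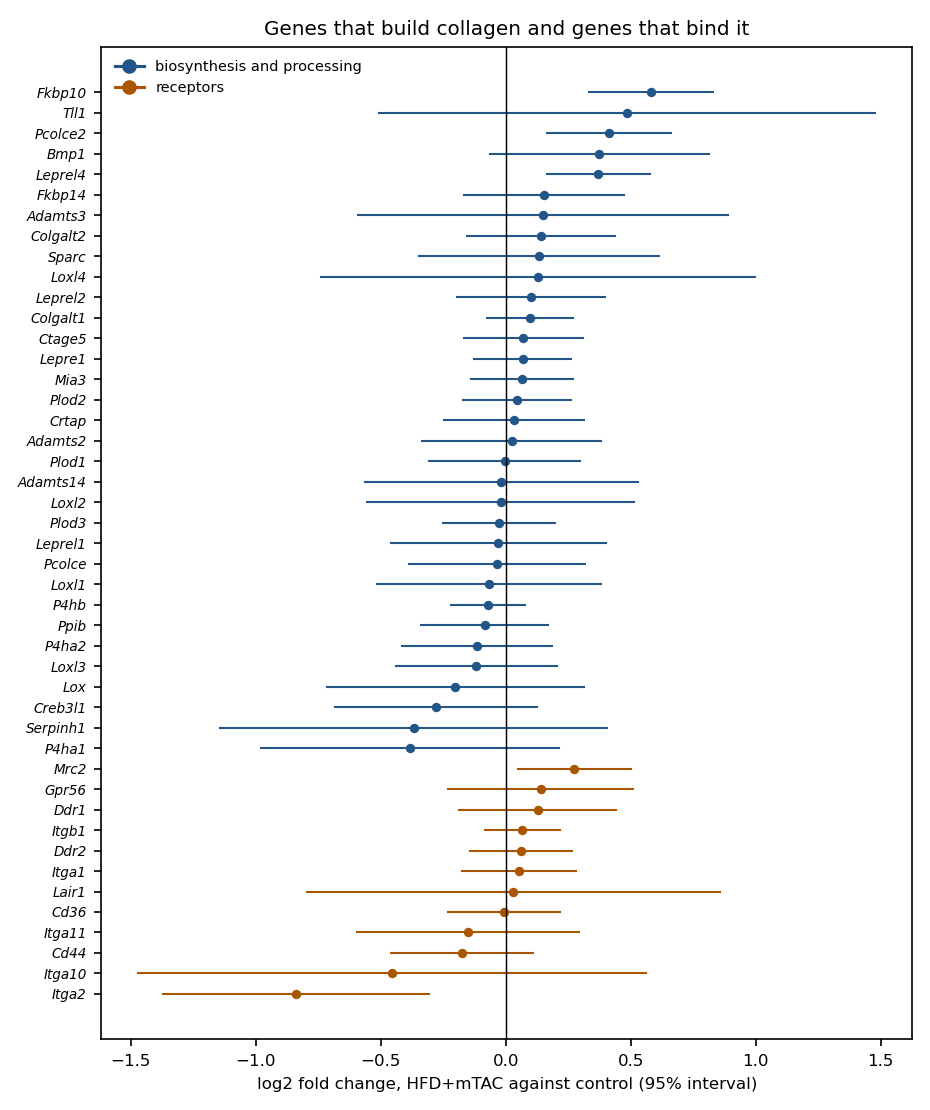
Log2 fold change (x axis, HFD+mTAC against control) with the 95% interval of edgeR for 33 genes of collagen biosynthesis and processing (blue) and 12 collagen receptors (orange). Fkbp10 (0.58), Pcolce2 (0.41), Leprel4 (0.37), Mrc2 (0.27) and Itga2 (-0.84) have intervals that do not cross 0.

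Markers of the cells that make collagen overlapped between the groups. The counts below stand beside 4.54% of all genes higher and 3.72% lower at an unadjusted p under 0.05 in edgeR's test. The summed fibroblast markers were at 1623 to 1953 CPM in control and 1697 to 2333 CPM in HFD+mTAC mice, with 1 of 8 (Gsn) at an unadjusted p under 0.05 and higher. Activated fibroblast markers summed to 86.8 to 177 CPM and 93.3 to 166 CPM, with 1 of 7 (Fap, log2 fold change 0.49, adjusted p = 0.467 from edgeR) higher. Endothelial markers summed to 1609 to 2049 and 1597 to 2320 CPM and mural markers to 2308 to 2903 and 2239 to 3186 CPM, with 0 of 6 tested in each list at an unadjusted p under 0.05. Macrophage markers summed to 182 to 279 CPM and 203 to 268 CPM, also with 0 of 6. Cardiomyocyte markers summed to 47477 to 52838 CPM in control and 39585 to 47420 CPM in HFD+mTAC mice. The sums did not overlap, by the narrow margin of 47420 CPM in the highest HFD+mTAC mouse against 47477 CPM in the lowest control. Groups overlapped in each of the 7 markers taken singly. All 7 fold changes were below 0, with 2 of 7 (Tnni3 and Actc1) at an unadjusted p under 0.05. The part of this difference in the CPM of Col8a1 was not tested.

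Markers of 4 other cell types or sites were few or low. Atrial markers, a check on the ventricular label, summed to 2.64 to 5.11 CPM in control and 2.84 to 3.58 CPM in HFD+mTAC mice. Sln and Myl7 were under the filter. Of the 2 tested, Myl4 did not reach an unadjusted p under 0.05 and Bmp10 was higher (against 4.54% of all genes). Bmp10 was at 0.208 ± 0.133 and 0.582 ± 0.219 CPM (SD, n = 5 each, log2 fold change 1.36, adjusted p = 0.460 from edgeR). Of adipocyte markers, Adipoq, Plin1 and Cidec did not pass the filter. The epicardial list was represented by Wt1 alone (12.7 to 27.3 CPM), and markers of cartilage or valve by Acan, Sox9 and Lect1 (6.29 to 10.6 CPM).

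Genes whose pattern over the 10 mice was most like that of Col8a1 were found by Pearson's correlation of log2(TPM + 1) among 6558 protein-coding genes averaging at least 1 TPM. These were Zfp276 (r = 0.932), Kctd17 (0.927), Cul7 (0.925), Fam198b (0.922) and Plxdc2 (0.908), none of them a collagen. For Col1a1 they were Col6a2 (0.969), Slc39a7 (0.948), Lhfp (0.936), Pno1 (0.928) and Col1a2 (0.925) among 6557 genes. The 10 mice share their libraries and the scaling of TPM in these values, which are descriptions.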

How the data were processed

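Poly(A) RNA of left ventricle was sequenced from 10 mice. The authors trimmed reads with fastp, quantified them with Salmon 1.6.0 (corrections for sequence, GC and position bias) and summed transcripts to genes with tximport. The deposited values are expected counts without normalization (20.07% not whole), TPM (scaled within each mouse) and the mean effective length in bases of each gene and mouse. The study's methods give GENCODE M25 on GRCm38.p6 and paired-end reads of 50 bases, whereas the labels give hg38 and single-end reads of 100 bases. Of 29564 symbols, 27812 matched GENCODE M21 and 923 RefSeq, used for biotypes and coordinates, and 829 matched neither. Sequences come from RefSeq promoters of GRCm38.p6.

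Counts were rounded and tested with edgeR 4.0.16 (R 4.3.3, TMM, quasi-likelihood, no covariate, Benjamini-Hochberg) over 13315 protein-coding genes outside the mitochondrial genome with at least 1 count in at least 9 of 10 mice. Chain ratios were tested by exact permutation, lengths with limma 3.58.1, and alternatives were DESeq2 1.42.0, other normalizations, filters, biotypes, lengths as an offset, a robust fit, the first principal component as a covariate, limma on log2(TPM + 1) or log2(TPM + 0.1) and the omission of each mouse. Fits without TT-583 and TT-584, levels per annotated kilobase and the correlations with Col1a1 were added after seeing the data. The code was tested on simulated counts. No list of genes was tested as a set.

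The collagen members and the gene lists were chosen with earlier results of these data known. Named in full are the 3 members of highest TPM of each type, the 5 of smallest p and those in the ratios, and from the biosynthesis and receptor lists the 2 of smallest p in each direction. Control mice number fewer in the study's legend for this comparison than in the tables, and which of them it used is not given in the sources used here, so all 5 were kept. The result of 1 list of cell type markers is not reported here. Labels give no batch, and each mouse is 1 replicate. Salmon divides reads shared between related transcripts, the kit was stranded, and genes renamed since are given by the symbol in the tables.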

Additional observations from a re-analysis of the deposited data

Results flagged for a closer look

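In 84 groups of 5 mice (CPM of each member and the 7 ratios), the highest or lowest mouse was compared with its nearest neighbor, and a gap above 0.71 of the group's whole range was marked, which chance gives in about 1 of 20 groups. This occurred 2 times, a share of the groups no larger than chance gives. Col4a1 was at 246 CPM in HFD+mTAC mouse TT-590, against 424 CPM in the next lowest of its group (gap 0.729 of the range), while Col4a2 in that mouse was at 590.7 CPM. The log2 ratio of Col1a1 to Col1a2 in TPM was -2.01 in control mouse TT-587, against -1.13 in the next (gap 0.752 of the range), and by counts it was -1.02 there and -0.65 in the next. The cause was not tested for either value.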

How the results depend on the processing

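At 12.7 to 21.1 M counts per mouse and 5 mice a group, changes under about 0.39 on the log2 scale lay within the interval of a typical chain of at least 10 CPM, and for chains under 10 CPM those under 0.43 to 1.53 did. No paired analysis was possible because the groups share no mouse numbers. Col8a1, Col16a1, Col20a1 and Col28a1 kept their direction in all alternatives, whereas Col5a3 came to -0.0117 (SE 0.18) without TT-583 and TT-584. The number of collagens called was 0 except for 1 (Col8a1) with DESeq2 and with the first principal component as a covariate, where all genes called were 120 and 54 instead of 8. All genes called were 1 with limma on log2(TPM + 1) or log2(TPM + 0.1), 1 with effective lengths as an offset, 4 without TT-583 and TT-584 (chosen after seeing the data) and 1 to 9 when each mouse was left out, with 1 to 3 when the mouse left out was any of TT-584 to TT-590 or TT-592. No effective length of a member was called under any setting.

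Signs were followed only for the chains whose fold changes without TT-583 and TT-584 are given above, and not for the other members. Fold changes of the following chains changed sign, none of them past the test on either side. With upper-quartile normalization the log2 fold change of Col6a2 was 0.00104. With limma on log2(TPM + 1), values were Col15a1 0.33, Col1a1 0.000583, Col3a1 0.0261, Col4a1 0.0733, Col4a5 -0.12, Col5a1 0.13, Col6a1 -0.0385 and Col6a2 0.0437, and with log2(TPM + 0.1) they were, in the same order, 0.33, 0.0153, 0.029, 0.075, -0.13, 0.13, -0.0397 and 0.0463. With lengths as an offset, they were Col15a1 0.16, Col4a1 0.00773, Col4a2 -0.0132, Col4a5 -0.17, Col5a1 0.0906, Col6a1 -0.0772 and Col6a2 0.00398. With the principal component, they were Col15a1 0.0258, Col18a1 0.11, Col1a1 0.0051, Col4a5 -0.0547 and Col6a2 0.0317. Without TT-583 and TT-584, they were Col11a2 0.10 (from -0.56), Col15a1 0.37, Col18a1 0.20, Col1a1 0.34, Col3a1 0.26, Col4a1 0.25, Col4a5 -0.0894, Col5a1 0.23, Col5a2 0.17, Col6a2 0.24, Col6a3 0.14 and Col8a2 0.10 (from -0.37), and the median of the members was 0.23. With counts in place of TPM, the log2 ratio differences were Col3a1/Col1a1 -0.20, Col4a1/Col4a2 -0.0964 and Col6a1/Col6a2 0.0408. Leaving out TT-583 and TT-584, the highest controls in most chains, raises most fold changes by that choice. The cause of the other changes of sign was not tested. When each mouse was left out in turn, the log2 fold changes that crossed 0 ran from -0.16 to 0.14 for Col15a1, -0.25 to 0.0605 for Col18a1, -0.20 to 0.10 for Col1a1, -0.0526 to 0.14 for Col1a2, -0.24 to 0.0613 for Col4a1, -0.0723 to 0.14 for Col4a2, -0.0593 to 0.0749 for Col4a5, -0.15 to 0.083 for Col5a1, -0.20 to 0.0373 for Col5a2, -0.078 to 0.13 for Col6a1 and -0.14 to 0.0857 for Col6a2. Log2 ratio differences ran from -0.26 to 0.0346 for Col1a1/Col1a2, -0.13 to 0.12 for Col3a1/Col1a1, -0.0873 to 0.26 for Col4a1/Col4a2 and -0.23 to 0.0488 for Col6a3/Col6a1.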
